A study of Mus musculus with 21 samples.

Results

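The genes C6, C8a, C8b, C8g and C9 encode blood proteins of the terminal complement pathway, and this account follows the open chromatin in and around them in male mouse liver. Every DNase-seq peak that overlapped the body of one of the 5 genes, or lay within 10 kb of it, was taken from the peak lists of 18 livers and from 2 lists called on pooled reads. Peaks of the 18 livers that shared at least 1 base were merged, which gave 68362 regions, and 28 of these met the rule. The 5 genes were picked after the contrast between STAT5_High and STAT5_Low livers had been seen, so presence, pileup and fold enrichment in that contrast are given as a description with no test.

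In DNase-seq, nuclei are treated with DNase I and the short fragments set free are sequenced, and accessible chromatin shows up as peaks of reads. The livers came from individual, untreated male CD-1 mice, an outbred stock, aged 8 to 10 weeks and with the pituitary intact. STAT5_High (8 livers) and STAT5_Low (10 livers) are classes of DNA-binding activity of the transcription factor STAT5, read by electrophoretic mobility shift assay on a portion of the same liver; no agent or genetic change separates the classes. The series asks how endogenous growth hormone pulses, which activate STAT5 in male liver, alter chromatin accessibility. Of 21 livers in the labels, 3 were titled outlier because their DNase profile resembled the opposite class, and they were not analysed here, so the classes were chosen partly on the measure being compared.

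The terminal pathway builds the membrane attack complex, a pore in the membrane of a target cell. C6 binds the fragment C5b and starts the assembly, C8 joins as a protein of 3 chains encoded by C8a, C8b and C8g, and C9 then polymerises into the wall of the pore. The liver secretes most of these proteins, and hepatocytes are their main source.

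Printed here are 5 windows of the mm9 reference, at the sites where STAT5_High stood furthest above STAT5_Low in presence or in pileup. The windows are given from the plus strand, in lower case, with motif matches in capitals. In 3 of them, at the C8a intron, upstream of C9 and upstream of C8b, the window is centred on the median summit of the STAT5_High livers (chr4:104512823-104512973, chr15:6392502-6392652 and chr4:104436504-104436654). The other two end at the base before the start of C6 and of C8b (chr15:4677024-4677174 and chr4:104438771-104438921). Capitals mark TTCNNNGAA, the STAT5 consensus, TTGCNNAA for C/EBP and TGTTTAC for FOXA.
C8a intron site: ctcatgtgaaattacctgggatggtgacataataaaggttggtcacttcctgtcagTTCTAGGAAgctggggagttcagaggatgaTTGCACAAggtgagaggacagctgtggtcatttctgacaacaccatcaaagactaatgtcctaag
C9 upstream site: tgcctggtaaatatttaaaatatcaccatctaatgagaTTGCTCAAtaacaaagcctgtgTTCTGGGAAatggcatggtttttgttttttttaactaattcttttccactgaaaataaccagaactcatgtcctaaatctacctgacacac
C8b upstream site: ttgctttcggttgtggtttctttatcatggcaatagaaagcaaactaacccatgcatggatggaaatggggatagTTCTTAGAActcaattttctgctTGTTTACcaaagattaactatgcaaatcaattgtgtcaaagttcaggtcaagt
C6 start site: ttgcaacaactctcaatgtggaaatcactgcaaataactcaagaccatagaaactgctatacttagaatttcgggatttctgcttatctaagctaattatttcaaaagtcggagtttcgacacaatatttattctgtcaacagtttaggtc
C8b start site: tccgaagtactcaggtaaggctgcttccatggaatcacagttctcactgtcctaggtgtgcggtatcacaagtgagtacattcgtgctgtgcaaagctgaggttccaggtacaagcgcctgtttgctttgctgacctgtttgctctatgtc

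TTCNNNGAA lay 15 bp from the median summit at the C8a intron site, 11 bp at the C9 upstream site and 4 bp at the C8b upstream site. Those were the 3 of 28 regions with the motif within 20 bp of the summit, against 2.52% of all 68362 regions. Anywhere in the region, the motif stood in 8 of the 28, against 20.3% of all regions and 28.8% of the regions with a peak in every liver. It was not found in the regions at the C6 and C8b starts. The C9 region 6.5 kb upstream, where a peak was less often present in STAT5_High, is not printed and held none of the motifs searched. TTGCNNAA was held by 12 of the 28 regions, against 29.0% of all regions and 41.0% of those with a peak in every liver. For TATTGAT (ONECUT) the count was 7, against 9.15% and 11.3%, and for TGTTTAC 6, against 11.6% and 15.9%. The HNF1 motif was held by 0, against 0.260% and 0.358%. Within 20 bp of the summit, TTGCNNAA stood in 3 of the 28 regions, against 3.99% of all regions. TGTTTAC and TATTGAT stood there in 2 each, against 1.42% and 1.37%, and the HNF1 motif in 0, against 0.0644%. A match near the summit was thus not particular to the STAT5 consensus. Median width was 723.5 bp for the 28 regions and 546 bp for all regions, and wider regions hold more matches. All motifs were searched on both strands; they are letters in the reference and not shown to be bound.

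The 28 regions were spread unevenly over the genes, with 9 at C8a, 6 each at C6 and C9, 5 at C8b and 2 at C8g. A peak was present in all 18 livers at 12 of them (42.9%, against 17.2% of all regions), in 1 liver at 5, and in an intermediate number at 11. The 18 lists together held 336 peaks of these genes, with 14 to 21 (median 20) per STAT5_High liver and 15 to 22 (median 18) per STAT5_Low liver. A share of livers higher in STAT5_High by 0.5 or more was seen at 2 of the 28 regions (background 1.77% of all regions), and one lower by 0.5 or more at 1 region (background 2.53%). Of all 28, 5 had a peak more often in STAT5_High, 11 more often in STAT5_Low and 12 equally often. Over all 68362 regions the counts were 17047, 39250 and 12065, so a lean towards STAT5_Low was not particular to these genes.

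Signal is given as the pileup, the number of extended reads over the peak summit per 1000000 tags of the library (RPM), and as fold enrichment, that pileup divided by the number of reads that its surroundings predict. Libraries held 13815438 to 17504539 tags and 18673 to 39732 peaks in STAT5_High livers, and 12890880 to 23395665 tags and 29626 to 45144 peaks in STAT5_Low livers. At the summits of these genes 10 to 247 reads were counted (median 47). Promoters of 5 of 8 hepatocyte marker genes had a peak in all 18 livers, and 1, that of Serpina1a, had none in any liver. Summed over all 8, the pileup was 13.9 to 47.4 RPM in STAT5_High and 31.8 to 51.0 RPM in STAT5_Low livers. Macrophage marker promoters had no peak in any liver (0 of 5), and 0 of 6 endothelial, 0 of 6 stellate, 0 of 6 lymphocyte and 1 of 5 cholangiocyte marker promoters had one in every liver. In whole liver, a larger share of cells with an open site and a wider opening per cell cannot be told apart.

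**Figure D1:**
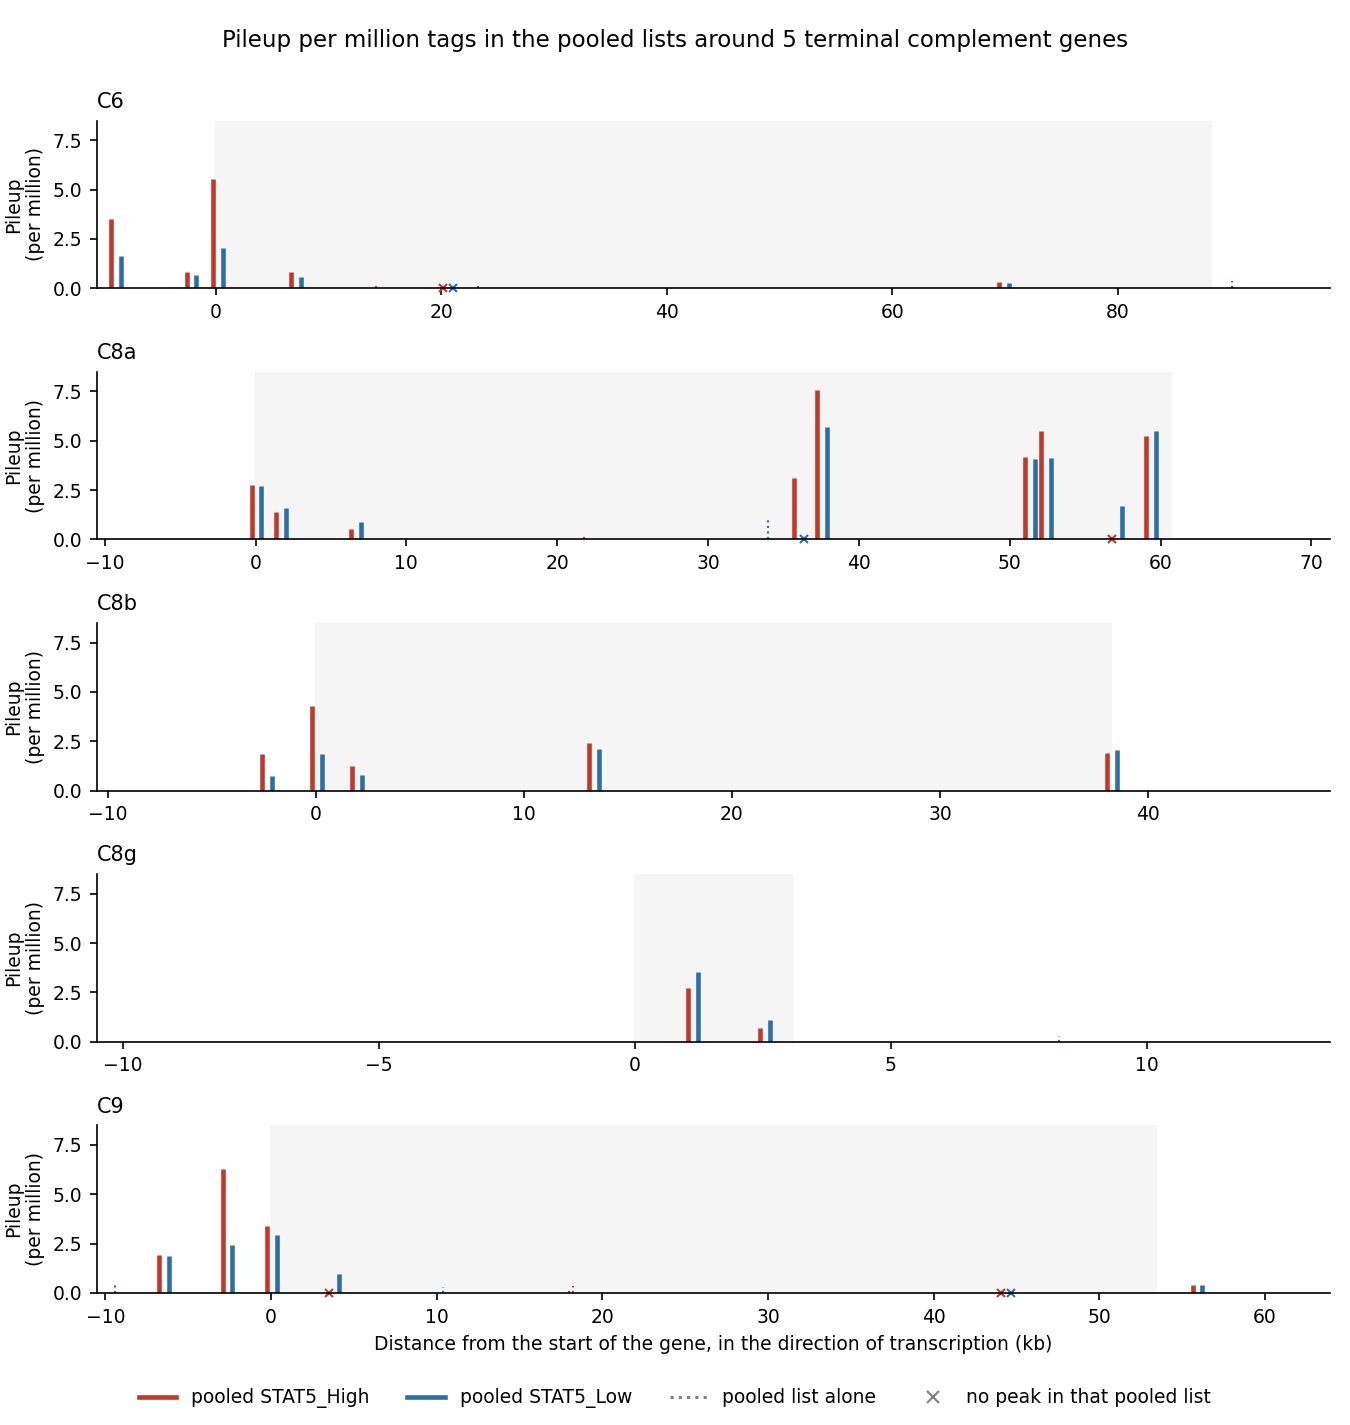
Pileup in RPM (vertical axis) in the pooled STAT5_High and pooled STAT5_Low lists against the distance from each gene's start in the direction of transcription (kb), with the gene body in grey and 1 panel per gene. Solid bars are regions of the 18 livers, dotted lines are peaks of a pooled list outside those regions, and crosses mark regions with no peak in that pooled list; the bars of C6 and C9 stand highest at or upstream of the start and those of C8a deep in the gene, while the highest C8b bar is at the start in pooled STAT5_High (4.27 RPM) and 13.4 kb inside the gene in pooled STAT5_Low (2.12 RPM).

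C6, which nucleates the complex (ENSMUSG00000022181.9, chr15:4677175-4765456, plus strand), had its strongest site at the gene start, chr15:4676789-4677994. The lowest, median and highest pileups there were 2.91, 4.16 and 11.7 RPM in STAT5_High livers, against 1.60, 2.23 and 3.12 RPM in STAT5_Low livers. In 7 of 8 STAT5_High livers the value lay above every STAT5_Low liver, and the classes met only at STAT5_High replicate 7. The mean was 5.84 ± 3.12 RPM in STAT5_High and 2.23 ± 0.460 RPM in STAT5_Low (SD, n = 8 and 10), a log2 difference of 1.25. Fold enrichment averaged 11.2 ± 2.53 in STAT5_High and 7.25 ± 1.01 in STAT5_Low livers.

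A second C6 site, 8.8 kb upstream (chr15:4667886-4668782), also had a peak in all 18 livers. Pileups there ran from 1.26 through a median of 2.50 to 7.94 RPM in STAT5_High livers and from 1.24 through 1.76 to 3.24 RPM in STAT5_Low livers. The ranges overlapped widely, and the 3 STAT5_High livers above every STAT5_Low liver were those of one collection, G92, described further on. Its fold enrichment, 11.8 ± 3.45 in STAT5_High and 8.81 ± 1.58 in STAT5_Low, was the highest of the 28 regions in each class. The other 4 C6 regions were weak: an intron site 7.1 kb inside the gene had a peak in 4 of the 8 STAT5_High livers and 4 of the 10 STAT5_Low ones, and the remaining 3 had one in 1 liver each.

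The C8 alpha chain, which inserts into the target membrane, is encoded by C8a (ENSMUSG00000035031.9, chr4:104488284-104549003, minus strand). C8a and C8b lie with their 3′ ends facing each other, 11130 bases apart. At the C8a start (chr4:104548369-104549512) the lowest, median and highest pileups were 1.93, 2.83 and 5.01 RPM in STAT5_High and 2.14, 2.55 and 4.19 RPM in STAT5_Low livers. The classes overlapped over nearly their whole range, with means of 2.92 ± 0.971 RPM in STAT5_High and 2.92 ± 0.769 RPM in STAT5_Low. The start was not the strongest C8a site: 4 regions deep in the gene, 37.6 to 59.3 kb from the start, had mean pileups of 4.33 to 7.78 RPM in STAT5_High and 4.26 to 5.88 RPM in STAT5_Low livers.

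The intron site 37.6 kb from the start (chr4:104510717-104512177) had the highest mean pileup of all 28 regions in each class. It ran from 4.62 through a median of 7.07 to 14.7 RPM in STAT5_High livers and from 4.53 through 5.66 to 7.95 RPM in STAT5_Low livers. Although 3 STAT5_High livers exceeded every STAT5_Low liver, the other 5 lay within the STAT5_Low range. Fold enrichment did not follow the pileup here, at 8.42 ± 1.41 in STAT5_High and 8.52 ± 1.19 in STAT5_Low, and the implied local background was 0.845 RPM in STAT5_High and 0.645 RPM in STAT5_Low. The second strongest C8a site by the mean over STAT5_High livers was another intron site, 52.4 kb from the start (chr4:104496234-104496942), with 3.71, 4.64 and 11.3 RPM (lowest, median, highest) in STAT5_High and 3.20, 4.17 and 5.96 RPM in STAT5_Low livers. By the mean over STAT5_Low livers it was the site at the 3′ coding exon (chr4:104489032-104490278), with 3.66, 4.75 and 8.11 RPM in STAT5_High and 3.80, 5.62 and 7.79 RPM in STAT5_Low livers. Most livers of the 2 classes shared 1 range at these 3 sites.

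Next to the strongest intron site, 36.1 kb from the start (chr4:104512664-104513240), lay the one region of the 28 that divided the classes completely by presence. All 8 STAT5_High livers and 0 of 10 STAT5_Low livers had a peak, a pattern met in 47 of 68362 regions (0.0688%). Values in the 8 STAT5_High livers were 3.11, 2.41, 3.40, 2.89, 5.85, 2.38, 2.74 and 3.12 RPM in the order of their replicate numbers, with a mean of 3.24 ± 1.11 RPM and a fold enrichment of 3.64 ± 0.745. The pooled STAT5_High list had a peak of 3.09 RPM with a fold enrichment of 3.65, and the pooled STAT5_Low list had no peak there. A missing peak means that the reads did not pass the caller's q cutoff of 0.05 over the local background, not that the chromatin was closed. The remaining 3 C8a regions were intron sites with a peak in 6 of the 8 STAT5_High livers and 9 of the 10 STAT5_Low ones, in 0 and 3, and in 0 and 2.

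The C8 beta chain, which binds the growing complex, is encoded by C8b (ENSMUSG00000029656.7, chr4:104438922-104477153, plus strand). Its start site (chr4:104438602-104439339) had pileups of 2.72, 4.19 and 8.54 RPM (lowest, median, highest) in STAT5_High livers, against 1.25, 2.25 and 2.56 RPM in STAT5_Low livers. Every STAT5_High liver stood above every STAT5_Low liver, the only such separation among the 12 regions with a peak in all livers; 0.800% of all 11748 such regions showed it, and 0.0255% the opposite. Means were 4.47 ± 1.78 RPM in STAT5_High and 2.06 ± 0.541 RPM in STAT5_Low, a log2 difference of 1.09. Fold enrichment overlapped, from 5.87 to 10.7 in STAT5_High and from 3.86 to 7.81 in STAT5_Low livers.

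A C8b site 2.3 kb upstream (chr4:104436382-104436775) had a peak in 7 of the 8 STAT5_High livers and 2 of the 10 STAT5_Low ones. Pileups in those 7 were 2.68, 2.11, 1.50, 3.10, 2.02, 1.94 and 1.71 RPM, and in the 2 STAT5_Low livers 1.25 and 1.14 RPM. The liver without a peak among STAT5_High was replicate 4, which had the shortest peak list of all livers. In the pooled lists the site had 1.86 RPM in STAT5_High and 0.736 RPM in STAT5_Low. The intron site 13.4 kb inside C8b (chr4:104451841-104452770) showed no such split, with 0.834, 2.47 and 5.13 RPM in STAT5_High and 1.10, 1.83 and 5.74 RPM in STAT5_Low livers (lowest, median, highest). Of the other two C8b regions, an intron site 2.0 kb inside had a peak in 4 of the 8 STAT5_High livers and 3 of the 10 STAT5_Low ones, and a site at the 3′ coding exon in 7 and 10.

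**Figure D2:**
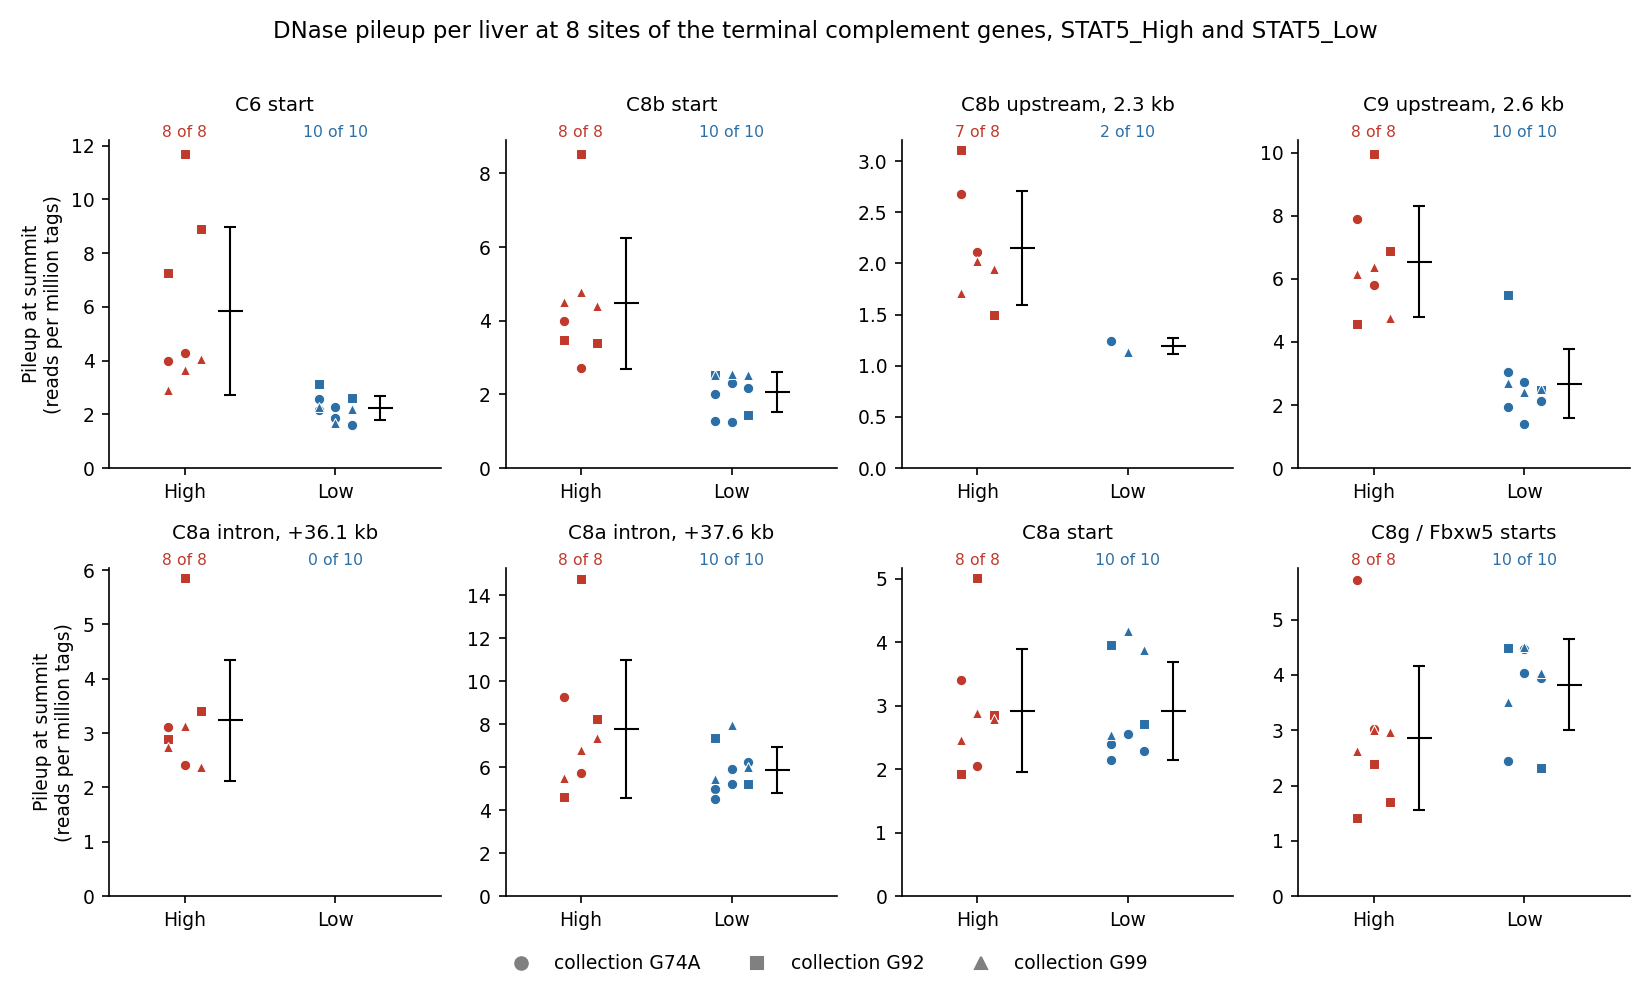
Pileup in RPM at the summit (vertical axis, starting at 0) for each STAT5_High and STAT5_Low liver with a peak, at 8 sites; marker shape gives the collection, black bars the mean and SD, and the counts above each panel the livers with a peak. At the C8b start all 8 STAT5_High livers lie above the 10 STAT5_Low livers, the C8a intron site at 36.1 kb has points for STAT5_High alone, and at the C8a start the classes share 1 range.

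C8g (ENSMUSG00000015083.5, chr2:25354171-25357239, minus strand) encodes the C8 gamma chain, a lipocalin that is dispensable for the pore. Its start region (chr2:25355485-25356732) also covered the start of Fbxw5, an F-box protein gene on the opposite strand. The median summit lay 12 bp from an Fbxw5 transcript start and 126 bp from the nearest of the C8g transcript starts, so the signal cannot be assigned to one gene. Pileups were 1.41, 2.80 and 5.72 RPM (lowest, median, highest) in STAT5_High and 2.32, 4.04 and 4.50 RPM in STAT5_Low livers. In STAT5_High, 7 of 8 livers lay below the STAT5_Low median, while replicate 1 held the highest value of all 18. The log2 difference of -0.50 was the lowest of the 12 regions with a peak in every liver, and 96.1% of all such regions had a higher one or an equal one. A second C8g region, at the start of a shorter transcript, had a peak in 0 of the 8 STAT5_High livers and 2 of the 10 STAT5_Low ones.

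C9, the pore-forming component (ENSMUSG00000022149.9, chr15:6395327-6448744, plus strand), lies 1.63 Mb beyond C6. Its strongest site in STAT5_High was 2.6 kb upstream of the start (chr15:6392278-6393112); in STAT5_Low the start itself had the higher mean, 3.02 RPM. Pileups there were 4.56, 6.27 and 9.97 RPM (lowest, median, highest) in STAT5_High livers, against 1.39, 2.50 and 5.48 RPM in STAT5_Low livers. In 6 of 8 STAT5_High livers the value exceeded every STAT5_Low liver, and the 2 exceptions were overlapped by STAT5_Low replicate 7 alone. The mean was 6.55 ± 1.75 RPM in STAT5_High and 2.68 ± 1.09 RPM in STAT5_Low, a log2 difference of 1.33, the largest of the 12. Fold enrichment had no overlap, at 5.75 to 8.58 in STAT5_High and 2.80 to 5.63 in STAT5_Low livers. The share of all regions without overlap was not computed for fold enrichment, so how common this is remains unknown.

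At the C9 start itself (chr15:6394915-6395813) the measures pointed in opposite directions. Pileups were 1.94, 3.43 and 5.31 RPM (lowest, median, highest) in STAT5_High and 2.62, 2.99 and 3.85 RPM in STAT5_Low livers, a log2 difference of 0.18. Fold enrichment averaged 4.18 ± 0.675 in STAT5_High and 4.99 ± 0.879 in STAT5_Low livers, a log2 difference of -0.25, while the implied local background was 0.793 RPM in STAT5_High and 0.573 RPM in STAT5_Low. The STAT5_High livers thus spread on both sides of the narrow STAT5_Low range.

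A C9 site 6.5 kb upstream, which also overlaps the 3′ end of the neighbouring gene Dab2 (chr15:6388427-6389264), had a peak in 4 of 8 STAT5_High and all 10 STAT5_Low livers. Where called, its pileup was 2.68, 2.47, 2.09 and 2.38 RPM in STAT5_High livers and 1.45 to 3.48 (median 1.71) RPM in STAT5_Low livers. Presence was thus lower in STAT5_High, while the pileup in the 4 livers with a peak was no lower. STAT5_High livers without a peak gave no pileup, so the comparison leaves them out. Fold enrichment averaged 3.53 ± 0.651 in the 4 with a peak and 4.61 ± 0.987 in STAT5_Low. The implied background was 0.650 RPM in those 4 livers and 0.383 RPM in STAT5_Low. The pooled lists gave 1.91 RPM in STAT5_High and 1.88 RPM in STAT5_Low. Of the last 3 C9 regions, 2 had a peak in 1 STAT5_Low liver each, and a downstream region over a copy of the multicopy 7SK RNA had one in 3 of the 8 STAT5_High livers and 5 of the 10 STAT5_Low ones; reads of such copies may be assigned uncertainly.

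**Figure D3:**
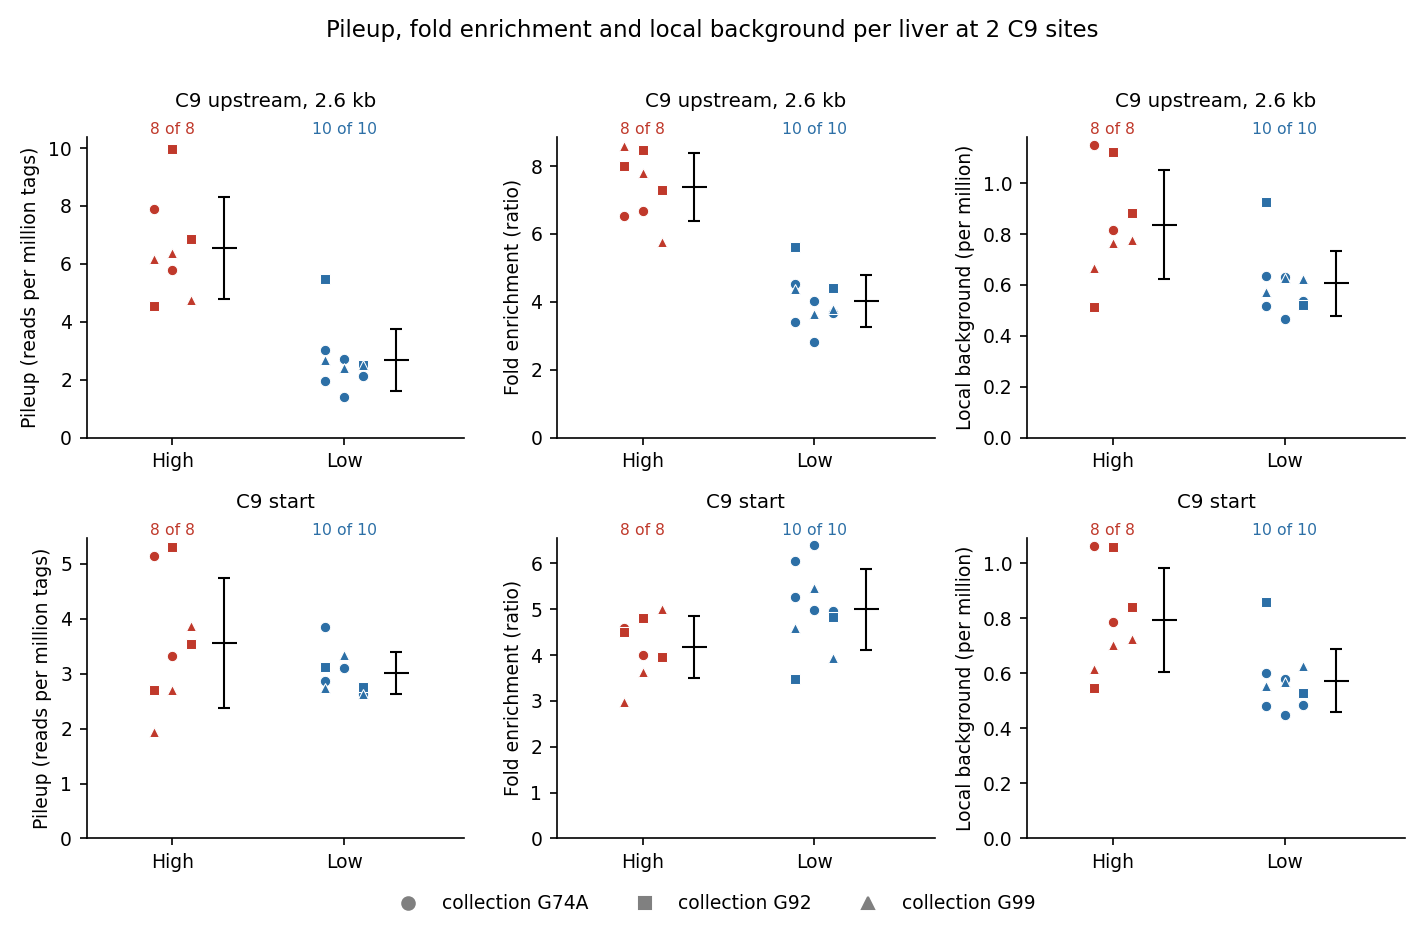
Pileup in RPM, fold enrichment and implied local background in RPM (vertical axes, each starting at 0) per STAT5_High and STAT5_Low liver at the C9 upstream site (top) and the C9 start (bottom); marker shape gives the collection, and black bars the mean and SD. Fold enrichment does not overlap between the classes at the upstream site (5.75 to 8.58 in STAT5_High, 2.80 to 5.63 in STAT5_Low), with no share over all regions computed. At the start fold enrichment is lower on average in STAT5_High (4.18 against 4.99 in STAT5_Low).

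The pooled lists held a few peaks that no list of a single liver had. Pooled STAT5_High had 29 peaks at the 5 genes and pooled STAT5_Low 32; 5 and 6 of these touched no region of the 18 livers. Those peaks had 0.225 to 0.373 RPM in pooled STAT5_High and 0.265 to 1.14 RPM in pooled STAT5_Low. In each pooled list, 2 of them overlapped a peak of the other list. The strongest, 1.14 RPM with a fold enrichment of 1.82, lay in the C8a intron 33969 bp from the start in pooled STAT5_Low alone. Pooled STAT5_Low was the deeper library (128701824 tags in pooled STAT5_High, 184748725 in pooled STAT5_Low), and pooled lists have no replicates.

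Just inside the 10 kb limit lay the C6 site 8393 bp from the gene, with a mean of 3.68 RPM in STAT5_High and 1.82 RPM in STAT5_Low. Just outside, the nearest regions were the C8b 3′ exon site at 10451 bp from C8a (2.18 RPM in STAT5_High, 2.25 RPM in STAT5_Low) and a region 10945 bp beyond C9 with a peak in 0 of the 8 STAT5_High livers and 1 of the 10 STAT5_Low ones.

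Set against all 11748 regions with a peak in every liver, the 12 regions of the terminal genes lay towards STAT5_High. Their median log2 difference in pileup was 0.25 and that of all regions was -0.17, and it was above 0 at 8 of the 12 against 25.6% of all. The genes were picked on this contrast, so nothing is read from these values. Centring each liver on its median region shifted every log2 difference by 0.11, and then gave medians of 0.36 for the 12 regions and -0.06 for all. By fold enrichment the medians were 0.05 for the 12 and -0.03 for all, and at 6 of the 12 the sign differed from that of the pileup.

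**Figure D4:**
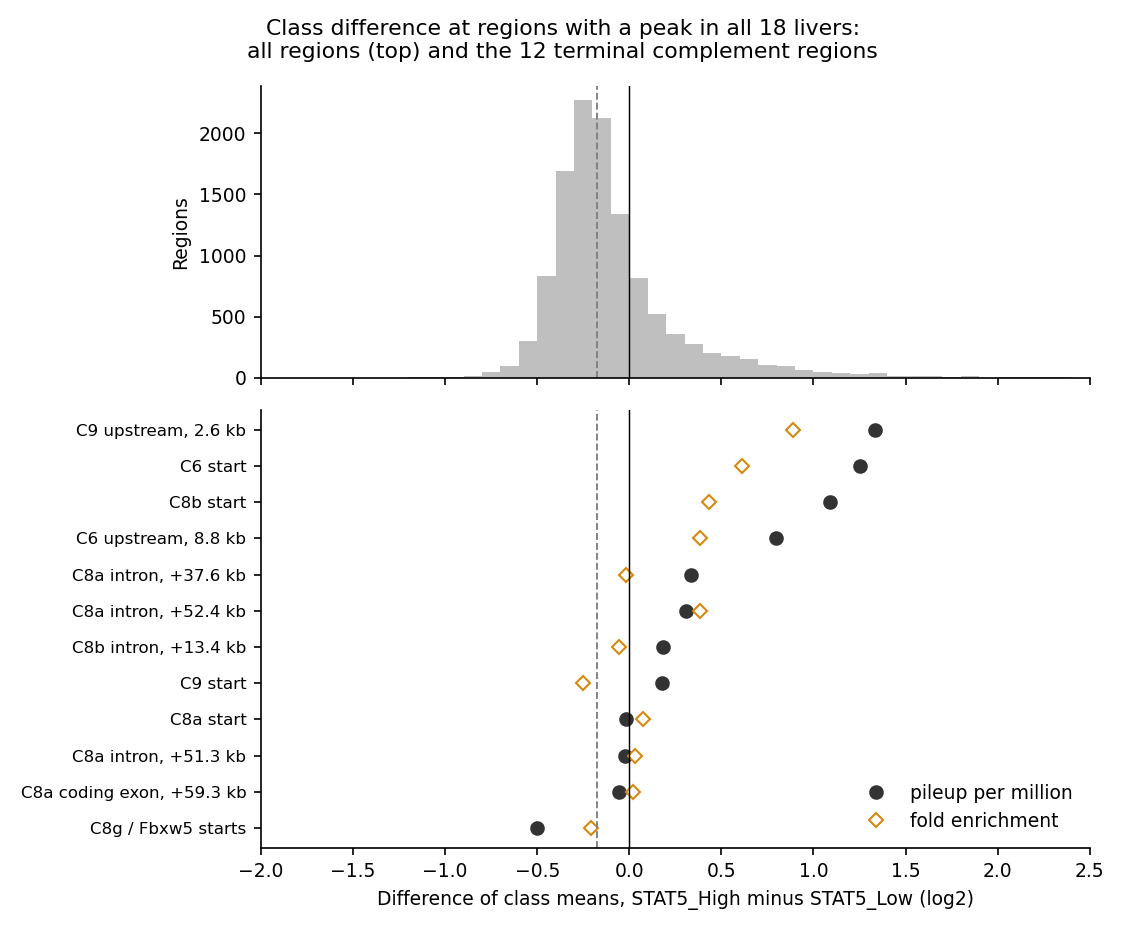
Log2 difference of class means, STAT5_High minus STAT5_Low (horizontal axis), as a histogram of the number of regions for the 11748 regions with a peak in all 18 livers (top), and at the 12 regions of the terminal complement genes by pileup (filled) and by fold enrichment (open; bottom). The dashed line is the median of all regions by pileup, -0.17; the C9 upstream site and the C6 and C8b starts lie above 1 by pileup and at 0.89, 0.61 and 0.43 by fold enrichment.

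The livers also differed in ways that the classes do not describe. STAT5_High replicate 5 held the highest pileup of its class at 10 of the 12 regions; its median pileup over those 12 was 7.94 RPM, against 3.16 to 4.95 RPM in the other STAT5_High livers and 2.45 to 4.21 RPM in STAT5_Low livers. Over all 11748 regions its median was 4.24 RPM, within the range of 1.67 to 4.56 RPM of its class and 2.78 to 4.50 RPM of STAT5_Low. Replicate 4 of STAT5_High had the lowest median over all regions, 1.67 RPM, but 3.56 RPM over the 12.

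Title prefixes place the livers in 3 collections, G74A (2 STAT5_High, 5 STAT5_Low), G92 (3 and 2) and G99 (3 and 3), whose meaning is not given in the labels. Collection was not used to choose the genes, and was tested with limma's F test across all 11748 regions with class as a term; 6.89% of all regions were called, and 2 of the 12, both at C6. At the C6 site 8.8 kb upstream the means were 1.88 ± 0.450 RPM in G74A, 4.86 ± 2.44 in G92 and 1.71 ± 0.377 in G99 (limma adjusted p = 0.00434), and at the C6 start 2.68 ± 1.05, 6.72 ± 3.87 and 2.79 ± 0.917 RPM (limma adjusted p = 0.0223). G92 was the highest at both. These means are over both classes, whose shares differ between the collections. With class as a term, the log2 difference of G92 from G74A was 1.04 at the upstream site and 0.83 at the C6 start. That of G99 from G74A was -0.27 and -0.16. With fold enrichment in place of pileup, where 8.61% of all regions were called, the upstream site kept its call (adjusted p = 0.0397) and the C6 start lost it (adjusted p = 0.0633). In the 10 STAT5_Low livers alone neither C6 site was called (limma adjusted p = 0.399 and 0.546), and the C8b intron site at 13.4 kb was (limma adjusted p = 0.00538); that is 1 of the 12, near the 8.50% of all regions called in the same test.

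**Figure D5:**
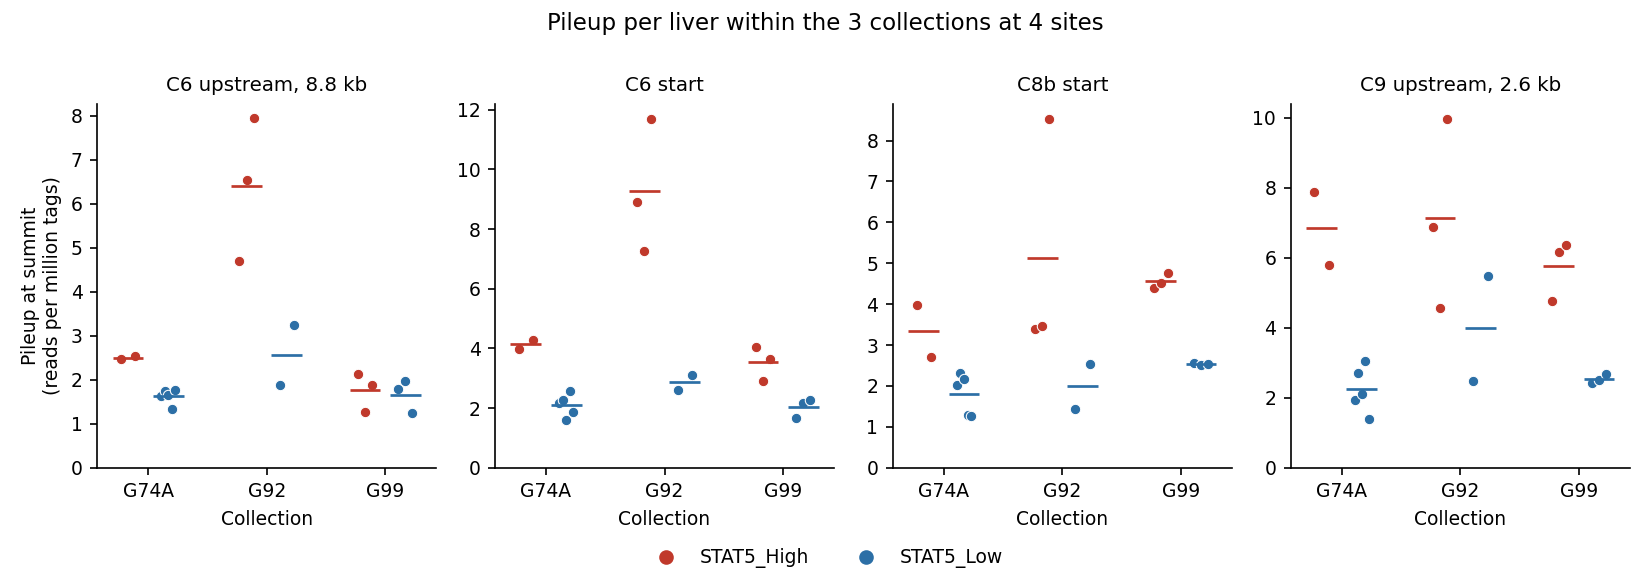
Pileup in RPM at the summit (vertical axis, starting at 0) per STAT5_High and STAT5_Low liver within collections G74A, G92 and G99 at 4 sites; horizontal lines are means. At both C6 sites the 3 STAT5_High livers of G92 stand highest, at 4.70 to 7.94 and 7.25 to 11.7 RPM. At the C8b start STAT5_High livers exceed STAT5_Low livers within every collection, which follows from their separation over all livers.

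Within collections, the class difference kept its direction at the C6 start, the C8b start and the C9 upstream site. At the C6 start the log2 difference was 1.00 in G74A, 1.68 in G92 and 0.79 in G99. The C8b start had 0.91, 1.28 and 0.85. In each collection all STAT5_High livers lay above all STAT5_Low livers at these 2 sites. At the C8b start this follows from the separation over all 18 livers. The share of all regions that separate within every collection was not computed. Because the genes were picked on the class contrast, the split adds no independent support. For the C9 upstream site the log2 difference was 1.65 in G74A, 0.88 in G92 and 1.17 in G99. The classes overlapped there in G92, where STAT5_High livers had 4.56 to 9.97 RPM and STAT5_Low livers 2.49 and 5.48 RPM. The C6 site 8.8 kb upstream ran from 0.63 and 1.34 in G74A and G92 down to 0.07 in G99, and the C8g start from 0.13 in G74A to -0.85 in G92 and -0.48 in G99. A difference of the class effect between collections was called by limma's F test at 1 of all 11748 regions (0.00851%) and at 0 of the 12, where the smallest adjusted p was 0.794 and the smallest unadjusted p 0.0548, at the C6 upstream site.

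Regions whose pileup followed each gene's strongest shared site were found by Pearson's r of centred log2 pileup over the same 18 livers, so that they share libraries and class; r is a description. The C9 upstream site was like a region in Fgl1, a hepatocyte-secreted fibrinogen-like protein gene (r = 0.974), and also like a region whose nearest coding gene is Myc, 355164 bp away (0.955). For the C6 start they were regions at Prr16 (0.953), Vmp1 (0.951) and Fgl1 (0.950), and for the C8b start at Zbtb20, a zinc-finger repressor gene (0.961), near Cd69 (0.942) and near 2310035K24Rik (0.940). The C8a intron site at 37.6 kb went with regions at Ptpn3 (0.930), Nr3c1 (0.924) and Arhgap5 (0.918), and the C8g and Fbxw5 start with Zbtb43 (0.890), Med11 (0.882) and Sgpl1 (0.881).

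The rest of the complement system was followed through a list of 36 other genes, of which 3 had no region within 10 kb. These 3 were C7, the terminal component that joins after C6, the ficolin gene Fcnb and the anaphylatoxin receptor gene C3ar1. Hc, the mouse gene for C5, had 10 regions, 2 of them with a peak in all livers. Among 153 regions of the list, 34 had a peak in 5 to 13 livers and were tested for presence by Fisher's exact test with Benjamini-Hochberg adjustment. Of these 0 passed in either direction, against 0.979% of all tested regions called more often in STAT5_High and 0.134% less often. At an unadjusted p under 0.05 there were 3 more often and 2 less often, against 6.01% and 8.09% of all tested regions. The regions named next are ranked by difference in share, not by p. Furthest towards STAT5_High was a region at Cfi, the protease that inactivates C3b. It had a peak in 5 of the 8 STAT5_High livers and 0 of the 10 STAT5_Low ones. Regions at Cfhr2, a factor H-related gene (6 and 2), and the lectin-pathway protease gene Masp1 (5 and 1) followed. Furthest towards STAT5_Low was a region 908 bp upstream of Vtn that overlaps the neighbouring gene Sarm1 (1 of the 8 STAT5_High livers and 8 of the 10 STAT5_Low ones). Next came a region in Vtn, whose product vitronectin keeps the terminal complex from inserting (3 and 9), and one 185 bp downstream of C4bp, a C4b-binding regulator (3 and 8). The Cfhr2 and C4bp regions did not reach an unadjusted p under 0.05 (Fisher's exact test, p = 0.0536 and 0.145). A region near C3, 140 bp from Tnfsf14, did (8 and 5, Fisher's exact test, unadjusted p = 0.036).

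Of the 32 other complement regions with a peak in every liver, 1 was called higher in STAT5_High by limma on log2 RPM, Benjamini-Hochberg adjusted over all regions at 0.05, and 0 lower. That share is near the background, since 3.86% of all 11748 regions were called higher and 0.238% lower. The region lay 4778 bp upstream of C3, the central component, and closer to the neighbouring gene Gpr108, at 1182 bp (chr17:57372337-57373159). Its pileup was 7.35 ± 2.60 RPM in STAT5_High and 3.77 ± 0.743 RPM in STAT5_Low (log2 difference 0.90, SE 0.22, limma adjusted p = 0.00778). With each liver centred on its median region, 7 of the 32 were called higher, against 7.35% of all regions.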

How the data were processed

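Peak lists of 8 STAT5_High and 10 STAT5_Low livers and 2 pooled lists were used. Per the file headers, the authors called peaks with MACS2 2.1.0.20150731 on uniquely mapped reads, without a control library, with reads shifted by -100 and extended to 200 bases, a q cutoff of 0.05 and all duplicates kept, per liver and on the pooled reads of each class. Per the submitters' processing notes, Bowtie2 was among the tools and mm9 was the build. The authors' pileup is an unscaled signal at the summit. The deposited fold enrichment is a ratio to the local background, and the deposited -log10 q value was used for alternatives that rank or filter peaks.

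The pileup was given per 1000000 tags (RPM), using the tag total in the same list's header. The implied background is (pileup + 1) / fold enrichment - 1, scaled likewise; in every library its minimum equals the genome-wide level of 0.107 RPM. A missing value means that no peak was called. Keeping duplicates means that reads at a summit need not be independent fragments.

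Peaks sharing 1 bp were merged (Python 3.11.15, pandas 2.3.3, numpy 2.4.6, scipy 1.17.1), and where a liver had several in a region, the highest pileup was taken. Genes came from GENCODE vM1 and sequences from NCBIM37, read with pysam 0.24.0; variants of the CD-1 stock were not considered. Presence was tested by two-sided Fisher's exact test on regions with a peak in 5 to 13 livers, and log2 RPM by limma 3.58.1 (R 4.3.3, trend) on regions with a peak in all 18, each with Benjamini-Hochberg adjustment over all tested regions; each step was tested on simulated data. Each sample is a liver of a different mouse. Replicate numbers of the titles did not pair the classes (correlations of same-numbered livers -0.16 to 0.38), so no block was used.

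The genes, lists, sites and tests were chosen with earlier results of these data known. Sites described liver by liver are those at gene starts (within 1 kb), the 2 strongest shared sites per gene, and those whose share of livers differs by 0.5 or more. Of the regions most like each gene's strongest site, 1 is not reported here.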

Additional observations from a re-analysis of the deposited data

Results flagged for a closer look

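Each set of values held the livers of 1 class at 1 region of the terminal complement genes, with a peak in all of them. Of 27 sets, 8 held a liver far from the rest, with a gap to its nearest neighbour above Dixon's 95% limit. That limit flags about 1 in 20 independent sets of normally distributed values. These sets share the same livers and hold RPM without log transformation, so no excess over chance is read from the count. STAT5_High replicate 5 was flagged at 3 sites. It had 14.7 RPM at the C8a intron site 37.6 kb from the start (next highest 9.27), 5.85 at the C8a intron site at 36.1 kb (next 3.40) and 8.54 at the C8b start (next 4.77). STAT5_High replicate 1 had 5.72 RPM at the C8g and Fbxw5 starts (next 3.02).

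In STAT5_Low, replicate 7 stood apart at 3 sites. It had 5.48 RPM at the C9 site 2.6 kb upstream (next highest 3.03), 3.48 at the C9 site 6.5 kb upstream (next 2.51) and 3.24 at the C6 site 8.8 kb upstream (next 1.97). STAT5_Low replicate 1 had 5.74 RPM at the C8b intron site at 13.4 kb (next 3.51).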

How the results depend on the processing

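Over all regions, presence calls were 153 more often and 21 less often in STAT5_High, of 15631 regions tested. They were 455 and 40 of 8178 with the same number of top peaks in every liver. With no filter on the number of livers they were 47 and 1 of 68362. Pileup calls over all regions were 453 higher and 28 lower in STAT5_High, of 11748 regions tested. Of the same 11748 they were 864 and 145 with each liver centred, and 0 and 0 within G92. At regions with a peak in at least 15 livers they were 846 and 49 of 23549. Counts from different numbers of tested regions are not directly comparable. The lower calls were 16 of 9909 with a -log10 q of 5 or more, and 1 within G74A and 158 within G99, each of 11748. The other complement regions had 2 presence calls of 22 tested with the same number of top peaks. Of 32 tested for pileup, 7 were called higher when centred, 0 within G92 and 2 within G99. Between collections, the main test called 810 of all 11748 regions, 2 of the 12 terminal complement regions and 1 of 32 other complement regions. Centring gave 4643 of the 11748, 7 of the 12 and 14 of the 32. The STAT5_Low livers alone gave 999 of the 11748, 1 of the 12 and 0 of the 32. The cause was not tested.

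Leaving out each liver in turn gave 156 to 251 presence calls more often and 22 to 43 less often in STAT5_High, and 323 to 756 pileup calls higher and 11 to 90 lower; the other complement regions had 1 to 7 higher. Without STAT5_High replicate 4 the calls were 251, 756 and 7, the highest of these ranges, and the lower calls were most numerous without STAT5_High replicate 1 (43 and 90) and without STAT5_Low replicate 6 (43 for presence).

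With the replicate number as a block, presence gave 0 calls over all regions in either direction (smallest adjusted p = 0.599 in the exact sign test over 8 pairs). A sign test over 8 pairs is too coarse to pass adjustment over 15631 regions, unless a large share of them reaches its smallest p. The 0 calls thus decide nothing about presence. Pileup gave 526 higher and 105 lower in limma. The numbers did not pair the livers: 4 of 8 correlations were over 0.1, and 1 of 8 was the best with its own number.

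Of 334 recomputed log2 differences at the terminal complement regions, 327 moved by less than the spread between livers. Most of the 334 left out a single liver, which can hardly move a class mean by that much. Some other settings repeated the main values unchanged. The count is therefore no measure of stability. The call upstream of C3 was lost within G92 (log2 0.61, limma adjusted p = 0.98). Depth limits the weak regions: accessible chromatin with few reads goes without a peak.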
